A study of Mus musculus with 6 samples.

Results

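The collagen genes were the genes whose symbol is Col followed by a type number, the letter a and a chain number, and 44 of the 21899 genes listed carried such a symbol. They were read as 11 genes of fibrillar chains, 6 of basement membrane chains and 27 of other types. Gene expression had been measured by RNA sequencing of Lewis lung carcinoma (LLC) tumors, grown from luciferase-carrying LLC-luc cells under the skin near the left armpit of male C57BL/6 mice. The 3 groups were named Laser, PC-La and SePC-La. In PC-La the photosensitizer phycocyanin (PC) was injected at the tumor, and in SePC-La selenium-enriched phycocyanin (SePC) was injected instead. Per the labels, injections were given every 5 days, and the laser of 620 nm was applied for 10 min at 4 h after an injection. The methods give other settings for the light and the interval, and they place the injections beneath the tumors. Laser tumors were irradiated without PC or SePC and, per the methods, were injected with saline. All groups therefore shared the irradiation, so no group shows tumors without light. The methods call the mice adult and describe them by weight, and no age in weeks is given in the sources used here. The labels call the tissue lung cancer tissue. Lung epithelium markers summed to between 0.710 and 1.83 FPKM in a library. Sftpd and Scgb1a1, a surfactant protein and a club cell protein, were listed at 0 in all 6. These values describe tumors grown under the skin and do not test that label.

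Collagens are the structural proteins of the extracellular matrix, built from chains wound into a triple helix. Fibrillar collagens form the fibers of connective tissue, with type I and type III the bulk of them and type V set inside them. Type IV forms the sheet-like network of the basement membrane under endothelium and epithelium, and type VI forms beaded filaments near cells. Fibroblasts are the main source of fibrillar collagen in solid tumors, and the chains of a heterotrimer are made by separate genes. Before secretion the chains are hydroxylated and folded in the endoplasmic reticulum, and after it they are trimmed and cross-linked.

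Each group had 2 libraries, and the labels speak only of duplicates, so the spread between libraries may be partly technical and the p-values measure that spread alone. Values are FPKM, a count of fragments scaled by exon length and by library total. The number of reads behind them was recovered from the values and ranged from 14447787 to 17649494 per library. Across all genes tested, Pearson's r of log2(FPKM + 1) was 0.946 between the Laser libraries, 0.992 between the PC-La libraries and 0.972 between the SePC-La libraries, as a description over genes that are not independent. Laser replicate 2 and SePC-La replicate 1 were the 2 lowest libraries in 19.3% of all genes tested. Laser replicate 2 also carried skeletal muscle RNA, with muscle markers summing to 159 FPKM against 1.72 to 24.7 FPKM elsewhere. In bulk tissue, fewer cells of a type and less RNA per cell cannot be told apart.

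Of the 44 collagen genes, 20 reached a mean of 1 FPKM over the 6 libraries and entered the tests. These were 6 of the 11 fibrillar genes, 3 of the 6 basement membrane genes and 11 of the 27 other genes. A further 22 lay below that mean with reads in some library, and Col9a2 and Col26a1 were listed at 0 throughout. Summed over all 44 genes, collagen FPKM was 1331 and 654 for Laser, 1540 and 1517 for PC-La and 444 and 895 for SePC-La. The SePC-La sums lay below both PC-La sums, but the Laser libraries lay on either side of SePC-La replicate 2. As a share of recovered reads, collagens took 1.14% and 0.495% for Laser, 1.33% and 1.32% for PC-La and 0.327% and 0.739% for SePC-La. Col3a1, the type III chain, held, of the summed collagen FPKM, 53.5% and 32.7% for Laser, 58.1% and 57.3% for PC-La and 16.4% and 44.3% for SePC-La. The type IV genes took 31.6% of the sum in SePC-La replicate 1, against 9.68% to 17.4% in the other libraries.

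**Figure D1:**
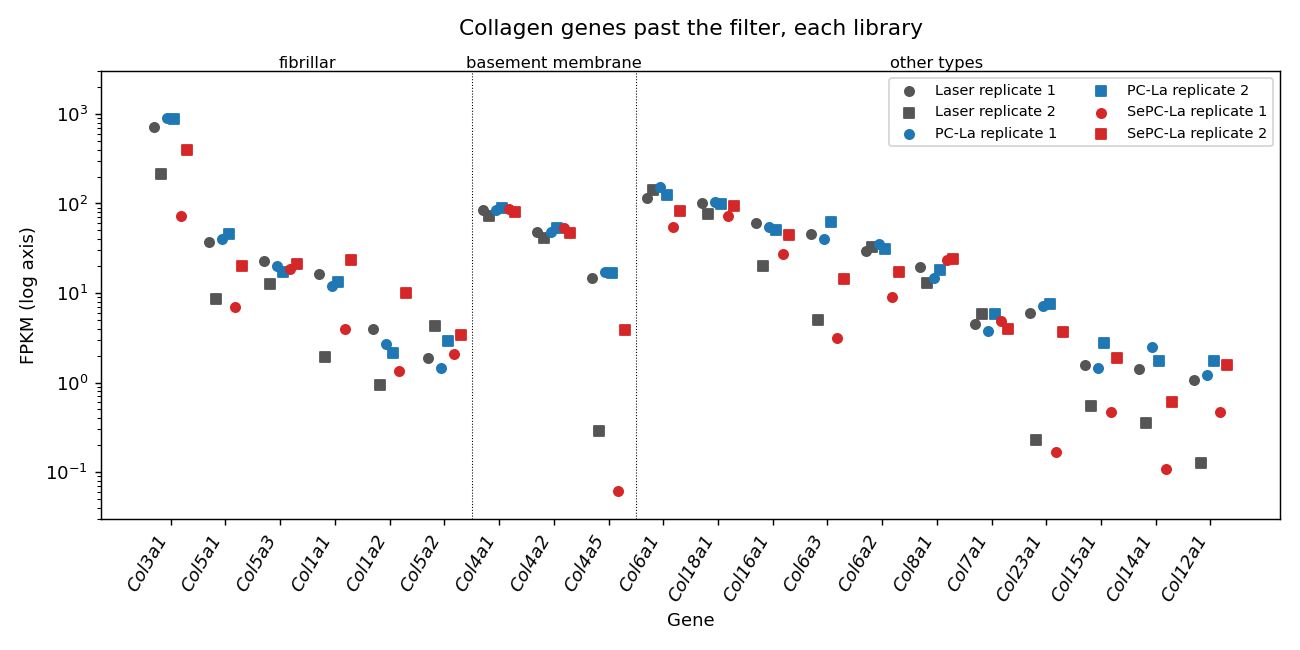
FPKM (log axis) of the 20 collagen genes past the filter, each symbol a library, with fibrillar, basement membrane and other types apart and genes ordered by mean level within a type. Col3a1 reached 895 FPKM, Col4a1 and Col4a2 held their level in all 6 libraries, and Col4a5 ranged from 0.0618 to 17.3 FPKM.

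Among the fibrillar genes, type III was the most abundant. Col3a1 (ENSMUSG00000026043, chromosome 1 from 45311538 to 45349706, plus strand) stood at 713 and 214 FPKM for Laser, 895 and 869 for PC-La and 72.8 and 396 for SePC-La. Positions here and below are those of GENCODE M21 on GRCm38, whose exon lengths gave whole reads, while the submitters' notes name mm9. The group means were 463 ± 353, 882 ± 18.7 and 235 ± 229 FPKM (SD, n = 2). Both PC-La libraries were the highest, Laser replicate 1 was next, and the lowest was SePC-La replicate 1. Both SePC-La values lay below both PC-La values, while the Laser values overlapped SePC-La. In the fit of log2(FPKM + 1) across all genes with limma, the difference between SePC-La and PC-La was -2.37 ± 0.97 (SE), with an adjusted p of 0.224, and it did not meet the criterion of the study, an absolute log2 fold change over 1 with an unadjusted p under 0.05. Without SePC-La replicate 2 the difference was -3.58 and met it, and without SePC-La replicate 1 it was -1.15. Against Laser, PC-La differed by 1.17 and SePC-La by -1.19, with adjusted p of 0.771 and 0.631 from limma. Leaving out SePC-La replicate 1 brought the latter to 0.021. With Laser replicate 2 left out, the difference of PC-La from Laser was 0.31, and with the other Laser library left out it was 2.04.

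Col5a1, the main chain of type V, a collagen that sits inside the type I fiber, had the same 2 low libraries at a lower level. It stood at 37.4 and 8.66 FPKM for Laser, 40.3 and 45.2 for PC-La and 7.02 and 19.8 for SePC-La. SePC-La was below PC-La in both libraries, with a log2 difference of -1.76 ± 0.78 (SE) and an adjusted p of 0.244 from limma. PC-La lay above both Laser libraries, by 1.18 with an adjusted p of 0.760 from limma. Neither difference met the criterion with all libraries. With Laser replicate 2 left out the latter was 0.19, and with Laser replicate 1 left out it was 2.18 and met the criterion. Without SePC-La replicate 2 the difference of SePC-La from PC-La was -2.45 and met it, and without SePC-La replicate 1 it was -1.07. Col5a2, its partner in the heterotrimer, ran otherwise, with 1.87 and 4.29 FPKM for Laser, 1.44 and 2.88 for PC-La and 2.08 and 3.41 for SePC-La. Its highest value came from Laser replicate 2, where Col5a1 was low. Col5a3, the third type V chain, held between 12.6 and 22.8 FPKM, with 22.8 and 12.6 for Laser, 19.9 and 17.3 for PC-La and 18.7 and 20.9 for SePC-La. The Laser pair spanned all the other values of this gene.

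Type I collagen, the main collagen of skin, bone and scar, was low in these tumors. Col1a1 stood at 16.3 and 1.91 FPKM for Laser, 12.1 and 13.4 for PC-La and 3.99 and 23.2 for SePC-La. Col1a2 gave 3.96 and 0.944 FPKM for Laser, 2.68 and 2.12 for PC-La and 1.33 and 10.1 for SePC-La. For both chains the highest library was SePC-La replicate 2 and the lowest was Laser replicate 2. The pairs of Laser and of SePC-La each enclosed the PC-La values, so no group stood apart. SePC-La replicate 2 also had the highest sum of adipocyte markers, 21.9 FPKM against 1.57 to 6.38 in the others, and the part of such cells in the type I values was not tested. Among fibrillar genes below the filter, Col24a1 was named after its values were seen. It had 69 and 9 reads for Laser, 90 and 55 for PC-La and 7 and 47 for SePC-La, with the 2 lowest libraries the same as for Col3a1. Col11a2 held 50 to 96 reads, Col27a1 7 to 22, Col2a1 0 to 26, and Col11a1 at most 3.

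The basement membrane genes split into a steady pair and a variable gene. Col4a1 and Col4a2, the chains of the ubiquitous type IV trimer, were among the least variable collagens. Col4a1 (ENSMUSG00000031502, chromosome 8 from 11198423 to 11312826, minus strand) stood at 84.6 and 72.5 FPKM for Laser, 83.6 and 89.6 for PC-La and 87.5 and 79.3 for SePC-La. Col4a2 (ENSMUSG00000031503, chromosome 8 from 11312805 to 11449287, plus strand) gave 47.7 and 41.2 FPKM for Laser, 48.1 and 52.8 for PC-La and 52.7 and 46.3 for SePC-La. From the lowest to the highest library, Col4a1 spanned 1.24-fold and Col4a2 1.28-fold. The log2 difference between SePC-La and PC-La was -0.055 for Col4a1, with a 95% interval from -0.38 to 0.27, and -0.027 for Col4a2, with an interval from -0.36 to 0.31. Under median-ratio scaling these became 0.021 and 0.049, so neither had a settled sign. Against Laser, SePC-La differed by 0.088 (interval -0.24 to 0.41) in Col4a1 and by 0.15 (interval -0.18 to 0.49) in Col4a2. Those signs turned too, to -0.042 for Col4a1 under quantile normalization and, without Laser replicate 2 and SePC-La replicate 1, to -0.092 and -0.041. All 4 intervals leave out a change of 1 on the log2 scale in either direction. Endothelium is a cell type that makes this trimer. Its summed markers were 26.9 and 27.6 FPKM for Laser, 29.1 and 39.1 for PC-La and 44.9 and 36.6 for SePC-La. The sums of PC-La and of SePC-La all lay above both Laser sums, and those of PC-La and SePC-La overlapped.

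Col4a5, the X-linked type IV chain found in the basement membranes of kidney, skin and smooth muscle, was the collagen past the filter with the widest range. It lies on chromosome X from 141475385 to 141689234, plus strand (ENSMUSG00000031274). It stood at 14.8 and 0.287 FPKM for Laser, 17.3 and 16.7 for PC-La and 0.0618 and 3.88 for SePC-La. In recovered reads these were 1561 and 34, 1819 and 1677, and 6 and 455. Laser replicate 2 and SePC-La replicate 1 were nearly without the transcript, although their Col4a1 and Col4a2 values were ordinary. The log2 difference of SePC-La from PC-La was -2.98 ± 1.37 (SE) with an adjusted p of 0.256 from limma, and without SePC-La replicate 2 it was -4.08 and met the criterion. Without SePC-La replicate 1 it was -1.88 and did not. From Laser, PC-La differed by 2.00 (adjusted p 0.762 from limma) and SePC-La by -0.99 (adjusted p 0.780). With Laser replicate 2 left out the difference of PC-La from Laser was 0.19, and with Laser replicate 1 left out it was 3.81 and met the criterion. That of SePC-La from Laser ran from -2.79 to 0.82 as single libraries were left out. Col4a6, its neighbor with which it shares a bidirectional start region, had 11 and 0 reads for Laser, 6 and 10 for PC-La and 0 and 1 for SePC-La. Col4a3 and Col4a4, the other chains of the specialized type IV network, held at most 4 and 20 reads.

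Among the other types, the clearest difference between groups was in type VI. Col6a1 and Col6a2 encode chains of the beaded filament, which links cells to the interstitial matrix. Col6a1 (ENSMUSG00000001119, chromosome 10 from 76708792 to 76726168, minus strand) stood at 115 and 142 FPKM for Laser, 151 and 125 for PC-La and 55.1 and 82.9 for SePC-La. Col6a2 (ENSMUSG00000020241, chromosome 10 from 76595762 to 76623630, minus strand) gave 29.6 and 32.6 FPKM for Laser, 35.5 and 30.7 for PC-La and 8.91 and 17.3 for SePC-La. For both genes, both SePC-La libraries lay below all 4 other libraries, and Laser and PC-La overlapped. Laser replicate 2, low in most collagens, was not low in either. Col6a2 fell in SePC-La by 1.33 ± 0.28 (SE) on the log2 scale from PC-La and by 1.25 ± 0.28 from Laser, with adjusted p of 0.126 and 0.376 from limma. Col6a1 fell from PC-La by 1.01 ± 0.23 (SE), with an adjusted p of 0.126. From Laser its difference was -0.91 ± 0.23, with an adjusted p of 0.376, which missed the criterion on size alone. Between PC-La and Laser the differences were 0.10 and 0.085, with adjusted p of 0.909 and 0.943 from limma.

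These calls lean on SePC-La replicate 1. Without it the Col6a2 differences were -0.89 from PC-La and -0.81 from Laser, and the Col6a1 difference from PC-La was -0.72, all under the criterion. Without PC-La replicate 1 Col6a1 stood at -0.88, and with median-ratio scaling at -0.94. Without Laser replicate 1 or without SePC-La replicate 2, Col6a1 met the criterion against Laser as well, at -1.06 and -1.20. The direction in SePC-La was lower in each of these.

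Col6a3, the long chain of the same filament, was also lower in both SePC-La libraries than in both PC-La libraries. It differed from its partners in Laser replicate 2, where it was low. It stood at 45.2 and 5.02 FPKM for Laser, 40.1 and 62.6 for PC-La and 3.15 and 14.4 for SePC-La. Its lowest libraries were Laser replicate 2 and SePC-La replicate 1, as for Col3a1 and Col4a5. Its mean in SePC-La was 0.17 times that in PC-La, against 0.50 for Col6a1 and 0.40 for Col6a2. No comparison of Col6a3 met the criterion with all libraries. The 3 genes below the filter that encode chains able to take its place, Col6a4, Col6a5 and Col6a6, had at most 13, 6 and 3 reads.

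All of Col6a1, Col6a2, Col6a3, Col3a1 and Col4a5 were lowest in SePC-La replicate 1, but the second lowest library was SePC-La replicate 2 for Col6a1 and Col6a2 and Laser replicate 2 for the others. The sequences before their starts are shown for comparison. Each is the part of the RefSeq promoter on GRCm38.p6 that lies before any annotated exon, printed 5′ to 3′ on the strand of the gene. Capitals mark a match on either strand to the letters CCAAT of the CCAAT box, to the letters GGGCGG of the GC box, or to the letters TATAAA of the TATA box. The windows are chr10:76726169-76726294 for Col6a1, chr10:76623631-76623880 for Col6a2 and chr1:90843972-90844221 for Col6a3, all on the minus strand. For Col3a1 it is chr1:45311288-45311537 and for Col4a5 chrX:141475169-141475384, both on the plus strand.
Col6a1: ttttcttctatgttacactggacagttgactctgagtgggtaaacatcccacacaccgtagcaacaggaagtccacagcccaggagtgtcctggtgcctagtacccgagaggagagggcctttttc
Col6a2: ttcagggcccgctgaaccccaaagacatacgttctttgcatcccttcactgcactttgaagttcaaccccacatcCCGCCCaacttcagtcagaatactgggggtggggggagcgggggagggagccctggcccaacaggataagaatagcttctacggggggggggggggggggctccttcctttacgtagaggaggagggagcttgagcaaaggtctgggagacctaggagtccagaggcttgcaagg
Col6a3: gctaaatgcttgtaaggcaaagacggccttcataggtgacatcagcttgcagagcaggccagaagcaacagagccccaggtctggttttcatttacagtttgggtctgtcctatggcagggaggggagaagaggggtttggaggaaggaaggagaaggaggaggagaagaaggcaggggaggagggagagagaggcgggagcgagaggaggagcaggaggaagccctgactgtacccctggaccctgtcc
Col3a1: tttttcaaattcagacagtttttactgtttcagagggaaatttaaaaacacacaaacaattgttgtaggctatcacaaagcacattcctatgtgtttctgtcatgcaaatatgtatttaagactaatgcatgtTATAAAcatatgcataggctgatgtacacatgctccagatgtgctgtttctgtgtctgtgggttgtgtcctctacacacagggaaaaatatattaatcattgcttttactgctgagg
Col4a5: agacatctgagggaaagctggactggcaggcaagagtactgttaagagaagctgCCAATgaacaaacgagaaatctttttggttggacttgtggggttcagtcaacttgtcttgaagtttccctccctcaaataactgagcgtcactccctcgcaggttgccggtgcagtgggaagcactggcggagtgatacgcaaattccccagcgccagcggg
Col6a2 held 1 match to the GC box letters, Col3a1 1 to the TATA box letters and Col4a5 1 to the CCAAT box letters. Col6a1 and Col6a3 held none of these letters. A match counted anywhere in a window, whatever its distance from the start, so it need not be a working box. Among 32851 RefSeq promoters, windows of 250 bases held the CCAAT box letters in 33.8%, the GC box letters in 32.7% and the TATA box letters in 12.4%. For the shorter Col6a1 window of 126 bases these shares were 16.9%, 13.5% and 6.26%, and for the Col4a5 window of 216 bases 30.5%, 27.9% and 9.8%. The Col6a1 window ends 124 bases short of the RefSeq start and the Col4a5 window 34 bases short, so the stretch nearest the start was not searched there. Within the windows Col6a1 and Col6a2, lower in both SePC-La libraries than in all others, shared none of these motifs. Given that gap and the shares above, nothing is concluded from it.

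The fibril-associated collagens, which coat fibers and link them to other matrix, were led by Col16a1. It stood at 60.3 and 20.1 FPKM for Laser, 55.3 and 50.2 for PC-La and 27.1 and 44.6 for SePC-La. SePC-La lay below PC-La in both libraries, and the Laser pair enclosed the other 4 values. Col14a1 (ENSMUSG00000022371, chromosome 15 from 55307750 to 55520803, plus strand), a fibril-associated chain that regulates fiber diameter, gave 1.42 and 0.355 FPKM for Laser, 2.47 and 1.72 for PC-La and 0.109 and 0.604 for SePC-La. Those values rest on 156 and 44, 271 and 181, and 11 and 74 reads. Col14a1 fell in SePC-La from PC-La by 1.21 ± 0.34 (SE) on the log2(FPKM + 1) scale, with an adjusted p of 0.138 from limma. At such a level the added 1 shrinks the difference, which was -2.50 with a pseudocount of 0.1 and -2.90 by limma voom on the recovered reads. The call was lost without PC-La replicate 1 (-1.03), without SePC-La replicate 1 (-0.94) and under quantile normalization (-0.98). Col12a1, the other fibril-associated gene past the filter, ranged from 0.127 FPKM in Laser replicate 2 to 1.73 in PC-La replicate 2. Below the filter, Col9a3 had 14 to 33 reads and Col20a1 14 to 27, and Col9a1, Col19a1 and Col22a1 at most 2.

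Col18a1, a basement membrane proteoglycan collagen and the precursor of endostatin, was abundant and even. It stood at 101 and 76.7 FPKM for Laser, 103 and 98.8 for PC-La and 72.5 and 94.7 for SePC-La. SePC-La was below PC-La in both libraries, and SePC-La replicate 2 lay within the Laser pair. Its relative Col15a1 ranged from 0.469 to 2.75 FPKM, lowest in SePC-La replicate 1 and highest in PC-La replicate 2. Col8a1, a short-chain network collagen of vessel walls, was the only gene of the 20 tested with both SePC-La libraries above the other 4. It gave 19.6 and 12.8 FPKM for Laser, 14.9 and 18.0 for PC-La and 23.2 and 24.0 for SePC-La. The log2 differences were 0.54 ± 0.21 (SE) from Laser and 0.50 ± 0.21 from PC-La, with adjusted p of 0.391 and 0.206 from limma, and both were under the fold of the criterion. Against Laser the difference was 0.25 without Laser replicate 2. Col8a2, its partner, had at most 3 reads, and Col10a1 at most 4.

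Col23a1, a transmembrane collagen that was named after its values were seen, had the same shape as Col4a5. It stood at 5.91 and 0.227 FPKM for Laser, 7.22 and 7.48 for PC-La and 0.169 and 3.64 for SePC-La. In reads these were 533 and 23, 647 and 642, and 14 and 365, so that Laser replicate 2 and SePC-La replicate 1 were again nearly empty. Col7a1, the anchoring fibril of skin, ran from 3.77 to 5.87 FPKM with overlapping groups. The remaining transmembrane genes lay below the filter, with 4 to 26 reads in Col13a1, 4 to 12 in Col17a1 and at most 1 in Col25a1. Col28a1, also below the filter and named after its values were seen, had 63 and 10 reads for Laser, 83 and 60 for PC-La and 4 and 6 for SePC-La. Both SePC-La libraries were its lowest.

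**Figure D2:**
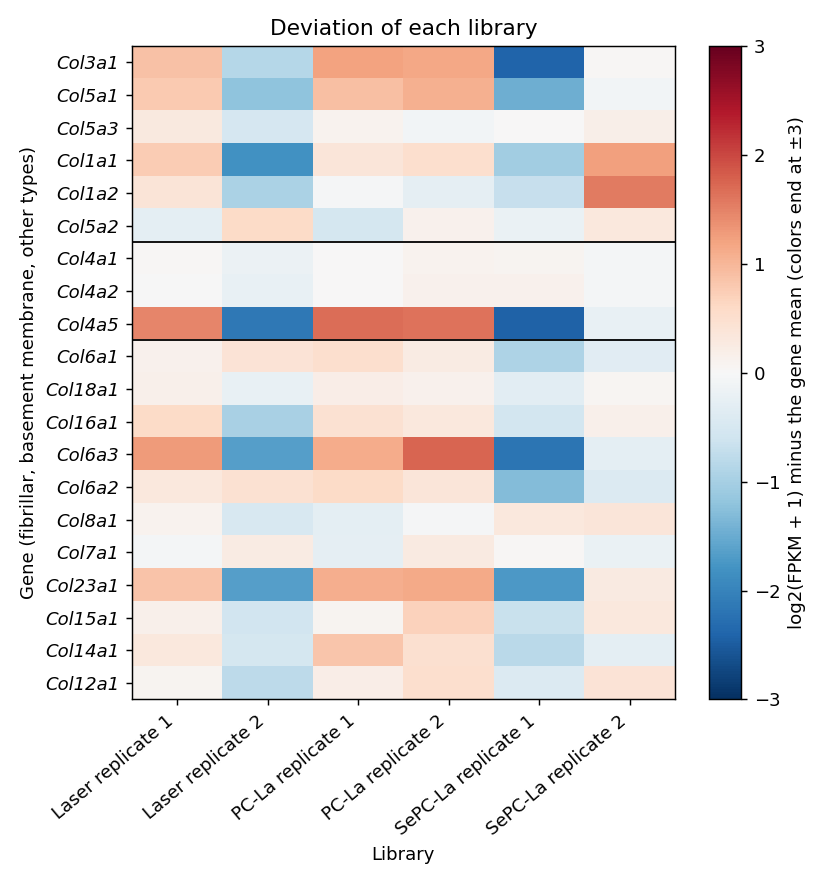
Deviation of each library from the gene mean, as log2(FPKM + 1), for the 20 collagen genes past the filter, with colors ending at the values marked on the bar. Laser replicate 2 and SePC-La replicate 1 were the 2 lowest libraries in 12 of the 20 genes, and the rows of Col4a1 and Col4a2 stay near 0.

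Over the 20 collagens tested, Laser replicate 2 and SePC-La replicate 1 were the 2 lowest libraries in 12 genes, 60% of them against 19.3% of all genes tested. The highest value came from a PC-La library in 14 of the 20 genes, against 3555 of all 10853, and from SePC-La replicate 2 in 3, against 1469. The 12 included 4 of 6 fibrillar genes, 1 of 3 basement membrane genes and 7 of 11 other genes. The summed fibroblast markers had the same order of libraries as Col3a1, at 702 and 129 FPKM for Laser, 1132 and 924 for PC-La and 68.0 and 319 for SePC-La. Of the 10 genes of that list, 7 to 9 were above 1 FPKM in a library. Fap, the fibroblast activation protein, gave 3.89 and 0.410 FPKM for Laser, 5.68 and 5.64 for PC-La and 0.465 and 1.33 for SePC-La. Pdpn went the other way, at 7.18 and 7.55 FPKM for Laser, 3.66 and 3.79 for PC-La and 8.61 and 8.48 for SePC-La. Pdgfrb and Thy1, also listed, changed little from PC-La to SePC-La, by 0.0088 and -0.21 on the log2 scale. Dcn, Lum and Dpt, small matrix proteins that also stand in the list of collagen-binding proteins, made up most of the fibroblast sum. Of the 8 tested genes of the fibroblast list, 1 (Pdpn) met the criterion as higher in SePC-La than in PC-La and 1 (Fap) as lower. The shares of all genes tested were 1.18% and 1.8%. The part of a differing fibroblast content in the collagen values was not tested. Skeletal muscle markers met the criterion as lower than Laser in 6 of 7 tested genes for PC-La and 7 of 7 for SePC-La, against 0.424% and 0.138% of all genes tested. Leukocyte markers summed to between 96.1 and 142 FPKM and mural cell markers to between 27.2 and 36.1. Des alone gave 17.6 of the mural 35.2 FPKM in Laser replicate 2, the library with muscle RNA, against 0.461 to 1.42 FPKM elsewhere. The mural range is therefore not a plain measure of mural cells. Cartilage markers summed to between 8.27 and 24.4 FPKM, nearly all of it Sox9 at 8.11 to 24.4. Matn3, Comp and Chad reached at most 0.438 FPKM, and Acan was at 0 in all libraries. Keratinocyte markers reached at most 0.666 FPKM, with Krt5 and Krt14 at 0 in all.

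**Figure D3:**
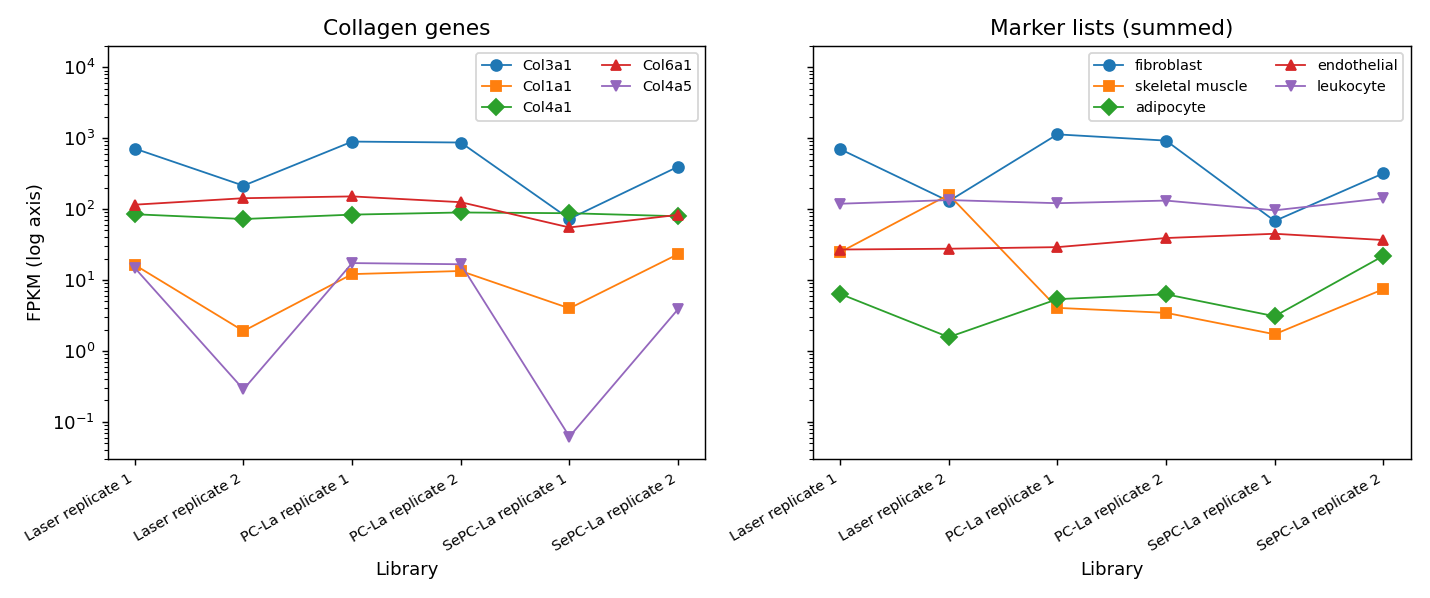
FPKM (log axis) in each library of 5 collagen genes (left) and of the summed markers of 5 cell types (right); lines join the libraries only to guide the eye. Col3a1 and the fibroblast sum were both lowest in SePC-La replicate 1, while Col4a1 stayed between 72.5 and 89.6 FPKM, endothelial markers between 26.9 and 44.9 and leukocyte markers between 96.1 and 142, and the muscle sum peaked at 159 FPKM in Laser replicate 2.

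The comparison of PC-La with Laser asks what the photosensitizer added to the light. Most collagen estimates were higher in PC-La, but no single gene passed. None of the 20 genes met the criterion, which 0.866% of all genes tested met as higher and 0.424% as lower, and none had an unadjusted p under 0.05, against 5.78% of all genes. No adjusted p was under 0.05 by limma, and limma voom on the recovered reads gave none either. The smallest adjusted p of a collagen was 0.753. The estimate was above 0 for 18 of the 20 genes and for 49.9% of all genes tested, with a median log2 difference of 0.39 against -0.00062 for all genes tested. By type the median was 0.54 in the fibrillar, 0.18 in the basement membrane and 0.58 in the other genes. In 7 genes both PC-La libraries lay above both Laser libraries, as in 20.4% of all genes, and in no gene below, as in 21.6%. Much of this hung on the unequal Laser pair. Without Laser replicate 1 the median was 0.89 and 7 genes met the criterion as higher, namely Col5a1, Col4a5, Col6a3, Col12a1, Col14a1, Col16a1 and Col23a1. Without Laser replicate 2 the median was 0.12 and no gene met it.

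For SePC-La against Laser, which adds the selenium-enriched sensitizer to the light, a single collagen met the criterion. Col6a2, of type VI, fell and no collagen rose, against 0.138% of all genes that met the criterion as lower and 0.544% as higher. An unadjusted p under 0.05 was reached by Col6a1 and Col6a2 as lower and by Col8a1 as higher, 3 of 20 genes against 12.1% of all. No adjusted p was under 0.05 by limma or by voom, and voom gave 3 genes at an unadjusted p under 0.05. The same genes were those whose groups did not overlap, 2 lower and 1 higher, against 25.6% and 15% of all genes. The estimate was above 0 in 8 of the 20 genes, against 40.2% of all genes. The median difference was -0.085 over the collagens and -0.065 over all genes tested, with 0.063 in the fibrillar, 0.088 in the basement membrane and -0.16 in the other genes. The median moved to 0.41 without Laser replicate 1, to -0.49 without Laser replicate 2, to 0.11 without SePC-La replicate 1 and to -0.43 without SePC-La replicate 2, so it had no settled sign. Without Laser replicate 2, 4 genes met the criterion as lower, Col6a2, Col5a1, Col4a5 and Col6a3. Without Laser replicate 1 there were 2, Col6a1 and Col6a2. Without SePC-La replicate 2 there were 3, Col6a1, Col6a2 and Col3a1, and without SePC-La replicate 1 the only call was Col1a2, as higher.

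SePC-La against PC-La, which compares the sensitizers under the same light, gave the most collagen differences. Col6a1, Col6a2 and Col14a1 fell and none rose. Of all genes tested, 1.8% met the criterion as lower and 1.18% as higher. An unadjusted p under 0.05 was reached by these 3 and by Col8a1, 4 of 20 genes against 24.3% of all genes, and limma voom also gave 4. Neither gave an adjusted p under 0.05, and the smallest of a collagen was 0.126. The estimate was above 0 in 4 of the 20 genes, against 41.5% of all genes. In 10 genes both SePC-La libraries lay below both PC-La libraries, against 39.5% of all genes, and in 1, Col8a1, above, against 26%. The median difference was -0.46 over the collagens and -0.074 over all genes tested. By type it was -0.12 in the fibrillar, -0.055 in the basement membrane and -0.58 in the other genes. The calls changed with single libraries. Without SePC-La replicate 2, 8 genes met the criterion as lower, the 3 named with Col3a1, Col5a1, Col4a5, Col6a3 and Col23a1, and the median was -0.99. Without SePC-La replicate 1 the sole call was Col1a2, as higher, and the median was -0.16. Without PC-La replicate 1 the sole call was Col6a2. The comparisons share libraries, so their lists are not independent of each other.

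**Figure D4:**
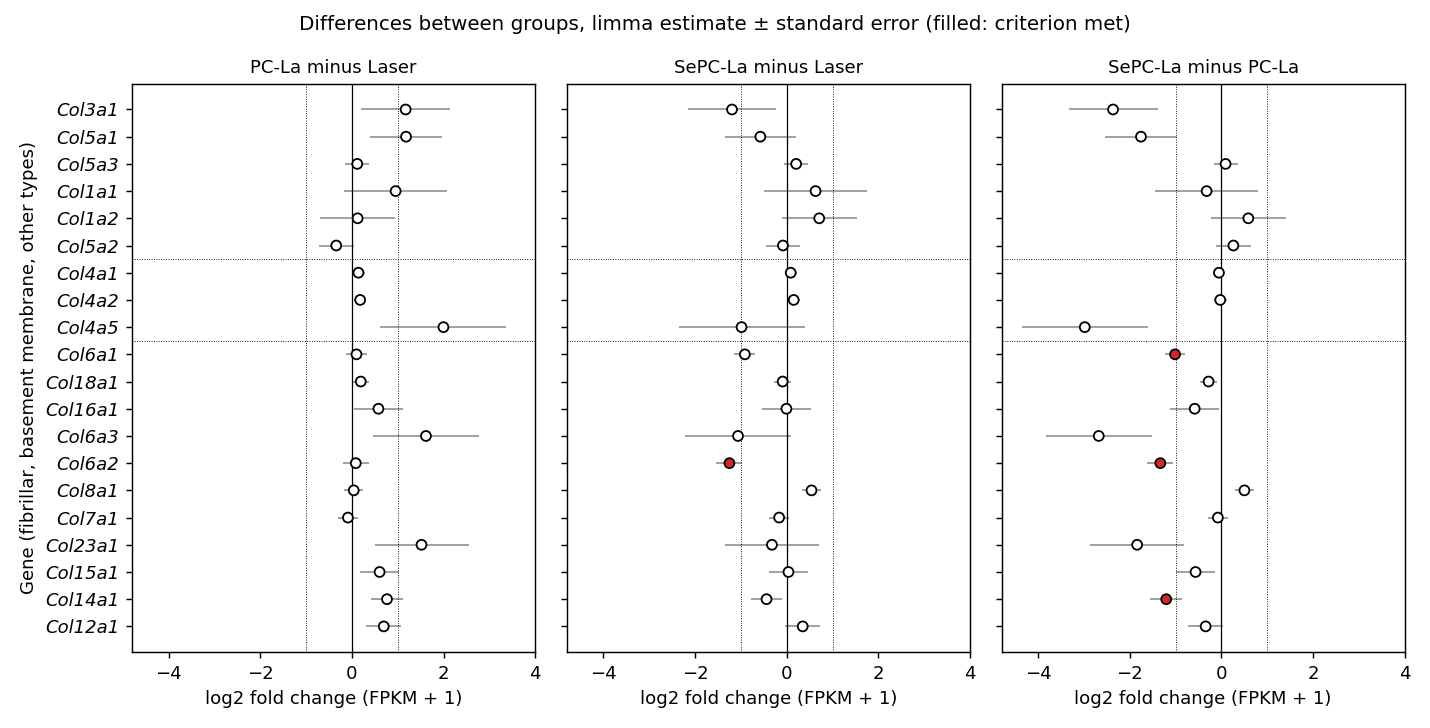
Log2 fold change of FPKM + 1 for the 20 collagen genes in the 3 comparisons, each point the limma estimate with its standard error as a bar, filled where the criterion of the study was met. Filled points are Col6a2 against Laser and Col6a1, Col6a2 and Col14a1 against PC-La, and Col3a1 and Col4a5 show wide bars.

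Ratios between chains of the same collagen were steady in some pairs and variable in others. The ratio of Col4a1 to Col4a2 in FPKM ran only from 1.66 to 1.77 over the 6 libraries. These genes lie head to head on chromosome 8, where their annotated exons share 22 bases. Col6a1 to Col6a2 was 3.90 and 4.37 for Laser, 4.26 and 4.08 for PC-La and 6.18 and 4.79 for SePC-La. It was thus highest in both SePC-La libraries, where Col6a2 was further below the other groups than Col6a1. These neighbors stand on the same strand of chromosome 10 with 85161 bases between them. Col6a3 to Col6a1 ranged 14.2-fold, from 0.0353 in Laser replicate 2 to 0.500 in PC-La replicate 2.

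Within the fibrillar genes, Col1a1 to Col1a2 ran from 2.02 to 6.32 and Col5a1 to Col5a2 from 2.02 to 28.0. Col3a1 to Col1a1 was 43.7 and 112 for Laser, 74.0 and 64.9 for PC-La and 18.3 and 17.1 for SePC-La. Both SePC-La libraries had close and lower ratios, although their Col3a1 and Col1a1 levels differed widely. Col3a1 and Col5a2 lie tail to tail on chromosome 1 with 24614 bases between them, and Col4a6 and Col4a5 head to head on the X chromosome with 1308. In both these pairs the levels of the 2 neighbors were far apart, with mean FPKM of 527 against 2.66 and of 0.0378 against 8.84.

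**Figure D5:**
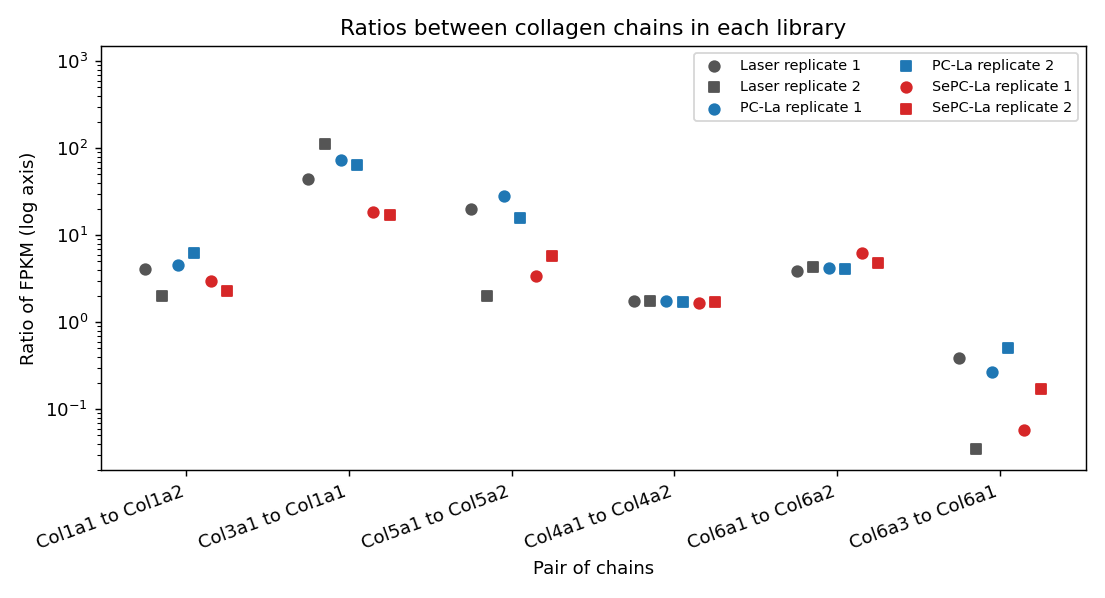
Ratio of FPKM (log axis) between 6 pairs of collagen chains in each library. Col4a1 to Col4a2 stayed between 1.66 and 1.77, while Col6a3 to Col6a1 ran from 0.0353 to 0.500 and Col3a1 to Col1a1 was lowest in both SePC-La libraries.

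The genes that make, bind and remove collagen were read from 7 lists of 81 genes, of which 80 were in the table and 65 were tested. In PC-La against Laser 2 of them met the criterion as higher and 3 as lower, against 0.866% and 0.424% of all genes tested. In SePC-La against Laser these numbers were 1 and 1, against 0.544% and 0.138%, and in SePC-La against PC-La 2 and 12, against 1.18% and 1.8%. The smallest adjusted p of limma were 0.419, 0.376 and 0.0763. In the list of modification and folding, 18 of 19 genes were tested, with P4hb, a subunit of prolyl hydroxylase, the most abundant at 288 to 375 FPKM. Their median was 0.26 in PC-La against Laser, -0.13 in SePC-La against Laser and -0.50 in SePC-La against PC-La. P3h4, a partner of the lysyl hydroxylase complex, fell in SePC-La from PC-La, from 24.2 and 20.7 to 6.29 and 12.9 FPKM. Sec23a, a coat protein of the vesicles that export procollagen, fell from 21.1 and 23.1 to 8.75 and 11.9 FPKM. Serpinh1, the collagen chaperone HSP47, gave 315 and 127 FPKM for Laser, 319 and 378 for PC-La and 208 and 250 for SePC-La, and met the criterion nowhere.

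Of the 8 tested genes of processing and cross-linking, medians were -0.084, -0.12 and 0.26 in the same order of comparisons. Pcolce, the enhancer of procollagen trimming, led with 85.8 to 126 FPKM. Loxl3, a lysyl oxidase, fell in SePC-La from PC-La, from 33.8 and 34.7 to 9.08 and 20.2 FPKM. Its relative Loxl2 fell in PC-La from Laser, from 2.90 and 11.3 to 1.24 and 1.84 FPKM, with an adjusted p of 0.753 from limma. Lox itself was below the filter.

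The 10 tested matrix proteins that bind collagen had medians of 0.93, -0.74 and -1.22, further from 0 than those of all genes tested (-0.00062, -0.065 and -0.074). Fn1, fibronectin, rose in PC-La from Laser and fell in SePC-La from PC-La. Fn1 gave 351 and 134 FPKM for Laser, 500 and 472 for PC-La and 106 and 130 for SePC-La. Its log2 difference of PC-La from Laser was 1.16 ± 0.44 (SE), with an adjusted p of 0.753 from limma. Its log2 difference of SePC-La from PC-La was -2.04 ± 0.44 (SE), with an adjusted p of 0.126 from limma. Thbs2 and the proteoglycan Vcan fell with it, by 1.25 and 1.19 on the log2 scale, each with an adjusted p of 0.126 from limma. Thbs1, thrombospondin, which binds matrix and releases active TGF-beta, went the other way. It gave 76.5 and 53.2 FPKM for Laser, 21.1 and 27.2 for PC-La and 115 and 86.6 for SePC-La. It fell in PC-La by 1.38 ± 0.23 (SE) on the log2 scale, with an adjusted p of 0.419, and SePC-La exceeded PC-La by 2.01 ± 0.23 with an adjusted p of 0.0763, both from limma.

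Basement membrane partners gave no call among 9 tested genes, with medians of 0.34, -0.26 and -0.37. Nid1, which joins laminin to type IV collagen, was the most abundant at 98.7 to 181 FPKM. Among 8 tested receptors the medians were 0.42, -0.26 and -0.50, and Itgb1, the shared beta chain of the collagen integrins, held 210 to 301 FPKM. Lair1, an inhibitory collagen receptor of leukocytes, fell in SePC-La from PC-La, from 7.37 and 8.62 to 1.88 and 3.10 FPKM, by 1.38 ± 0.20 (SE) on the log2 scale with an adjusted p of 0.0985 from limma. Itga2, a collagen-binding integrin chain, rose in PC-La from Laser and fell in SePC-La from PC-La, with adjusted p of 0.753 and 0.206 from limma. Its values were 2.35 and 0.270 FPKM for Laser, 2.87 and 4.17 for PC-La and 0.893 and 1.25 for SePC-La. Itga10, another such chain, fell in SePC-La from Laser, from 1.68 and 4.49 to 0.694 and 1.12 FPKM. The adjusted p of that fall was 0.385 from limma.

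All 6 collagen-degrading proteases were tested, with medians of 0.36, 0.53 and 0.81. Mmp14, the membrane-bound collagenase and most abundant of them, fell in SePC-La from PC-La, from 129 and 113 to 47.3 and 60.9 FPKM. Mmp8, the neutrophil collagenase, fell in PC-La from Laser and rose in SePC-La from PC-La, with adjusted p of 0.560 and 0.126 from limma. Mmp8 gave 3.57 and 7.85 FPKM for Laser, 1.5 and 1.46 for PC-La and 6.96 and 5.90 for SePC-La. Mmp13, an interstitial collagenase, rose in SePC-La from Laser, from 9.09 and 0.827 to 25.2 and 17.1 FPKM, with an adjusted p of 0.408 from limma. From Laser to PC-La the Mmp13 difference was 0.99 on the log2 scale, with an adjusted p of 0.782 from limma. The authors instead describe Mmp13 as lowered by both sensitizers under light, in a sentence that does not name the assay. Of the 6 tested genes of TGF-beta signaling, a main inducer of collagen genes, Tgfb3, Tgfbr1 and Tgfbr2 fell in SePC-La from PC-La. Tgfb3 went from 21.4 and 20.4 to 5.89 and 8.23 FPKM, Tgfbr1 from 13.7 and 15.4 to 3.11 and 4.65, and Tgfbr2 from 26.1 and 27.2 to 6.77 and 16.2. The medians were 0.35, -0.47 and -0.97, and Tgfbr3 led at 28.8 to 62.6 FPKM.

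Several of these calls also rested on single libraries. Between SePC-La and PC-La, leaving out SePC-La replicate 1 ended those of P3h4 (-0.75), Sec23a (-0.85), Loxl3 (-0.73), Vcan (-0.90), Mmp14 (-0.98), Itga2 (-0.99), Tgfbr1 (-1.46) and Tgfbr2 (-0.69). Leaving out PC-La replicate 1 or replicate 2 ended P3h4 (-1.11 and -1.32), Loxl3 (-1.29 and -1.25), Itga2 (-1.32 and -0.91), Tgfbr1 (-1.77 and -1.60) and Tgfbr2 (-1.29 and -1.23), which then missed on their p or size, and leaving out PC-La replicate 2 ended Sec23a (-0.98). Itga2 was lost there without SePC-La replicate 2 too (-1.24). Fn1, Thbs1, Thbs2, Lair1, Mmp8 and Tgfb3 met the criterion in that comparison with any single library of it left out. Between PC-La and Laser, leaving out Laser replicate 2 ended Fn1 (0.47), Loxl2 (-0.63), Itga2 (0.42) and Mmp8 (-0.88), and leaving out PC-La replicate 1 or replicate 2 ended Fn1 (1.12 and 1.20), Loxl2 (-1.28 and -1.62) and Itga2 (1.32 and 0.91). Between SePC-La and Laser, Itga10 and Mmp13 were lost without Laser replicate 2 (-0.50 and 1.11) and without SePC-La replicate 1 (-0.86 and 2.08) or replicate 2 (-1.18 and 2.61).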

How the data were processed

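RNA was extracted with Trizol from tumor tissue and 6 libraries were made with the NEBNext Ultra II kit, whose use of strand is not stated. The authors deposited 1 table with a value for each gene and library, and every column was used. The unit is not named there, but the deposited values behaved as FPKM. Multiplied by the merged exon length of GENCODE M21 (GRCm38) they gave whole reads, within 0.05, for 42 of the 44 collagen genes, and not for Col5a1 and Col13a1, whose read numbers are approximate. The submitters' processing notes name HISAT2 2.0.5, HTSeq 0.9.1, DESeq 1.30.0 and the build mm9, and the annotation is not given in the sources used here. Gene positions come from GENCODE M21 on GRCm38, and promoter sequences are those of RefSeq on GRCm38.p6, which had 35 of the 44 genes.

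On the log2(FPKM + 1) scale, limma 3.58.1 (R 4.3.3) was fitted with trend and robust moderation over the 10853 genes that averaged at least 1 FPKM. All 6 libraries entered 1 fit with a mean for each group. The authors screened genes with DESeq, for which limma stands in here because the deposited table holds FPKM. Adjusted p-values are Benjamini-Hochberg over all genes tested. Fold changes on this scale understate those of low genes. FPKM is relative to the total of each library, and exon bases shared with any single other gene made up at most 1.44% of those of the members whose folds are given. The script was tested on simulated data with the same spread setting in every gene and library. That test does not cover the unequal pairs of libraries seen here.

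The members, gene lists and alternatives were chosen with earlier results of these data known. Values are given for members that met the criterion or had an unadjusted p under 0.05 in a comparison, for the 3 most abundant of each type and for chains of a heterotrimer, and for listed genes that met the criterion and the most abundant of each list. Members named outside this rule are said to be so. Alternatives were a pseudocount of 0.1, no filter, median-ratio scaling, quantile normalization, the replicate number as a block, only the 4 libraries compared, and each library left out. Limma voom on recovered reads and a fit without Laser replicate 2 and SePC-La replicate 1 were added after the data were seen. When a library is left out, the lone library of its group is assumed to vary like the other groups. Python 3.11.15 with pandas 2.3.3 and matplotlib 3.10.9 served for tables and plots.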

Additional observations from a re-analysis of the deposited data

How the results depend on the processing

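Counts of collagen genes that met the criterion were 0 for PC-La against Laser, 1 for SePC-La against Laser and 3 for SePC-La against PC-La, and with single libraries left out they ran from 0 to 7, from 1 to 4 and from 1 to 8. The median differences ran from 0.12 to 0.89, from -0.49 to 0.41 and from -0.99 to -0.16. The count for SePC-La against Laser was 2 under quantile normalization, which added Col6a1. The count for SePC-La against PC-La was 8 with only the 4 libraries compared. Without both Laser replicate 2 and SePC-La replicate 1 the counts were 3 and 5, and 5 and 11 collagen genes then had an adjusted p under 0.05 by limma. That fit takes its spread from the PC-La pair alone. The other alternatives kept each count within 1.5 times, and the cause of these shifts was not tested.

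The single-gene differences given in the report were first counted under the alternatives other than leaving out a single library. These included the fits of only the 4 libraries compared and the fit without both libraries. There 299 kept their direction and side of the criterion, 47 no longer met it, 9 came to meet it and 5 turned. With single libraries left out these numbers were 116, 42, 10 and 12. Col4a1 turned from 0.088 to -0.042 under quantile normalization and to -0.092 without both libraries for SePC-La against Laser, where Col4a2 turned to -0.041. For SePC-La against PC-La, median-ratio scaling turned Col4a1 to 0.021 and Col4a2 to 0.049. With single libraries left out, SePC-La minus Laser ran from -2.41 to 0.021 for Col3a1, from -1.57 to 0.42 for Col5a1, from -2.79 to 0.82 for Col4a5 and from -0.022 to 0.20 for Col4a1. SePC-La minus PC-La ran from -0.12 to 0.015 for Col4a1 and from -0.12 to 0.065 for Col4a2. PC-La minus Laser ran from -0.050 to 0.25 for Col6a1 and from -0.017 to 0.19 for Col6a2. Median-ratio scaling moved the genes of the whole table that met the criterion between SePC-La and PC-La from 128 higher of 323 to 158 higher of 312.

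Libraries with the same replicate number did not deviate together, with correlations across genes of 0.086 between Laser and PC-La, -0.428 between Laser and SePC-La and -0.177 between PC-La and SePC-La. The samples were therefore not treated as paired. With 2 libraries a group this check cannot exclude a small effect shared by equal numbers. Fitted with a replicate block, the collagen counts were 0, 1 and 3, as without it. The 24 collagen genes below a mean of 1 FPKM had at most 96 reads in a library, and differences between groups in them were not tested.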
